A study of Mus musculus with 2 samples.

Results

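The chaperonin TRiC, also called CCT, is built from 8 subunits, and the genes of all 8 were read on both arrays: Tcp1, Cct2, Cct3, Cct4, Cct5, Cct6a, Cct7 and Cct8. They were picked by symbol, as every probe set that the platform annotation gives 1 of these 8 names and no other. That rule found 25 probe sets for 8 genes, of 18193 genes with a probe set of their own. Of the 25 probe sets, 21 had a mean signal over the floor of 394 (the median of all values, below which a signal was not read further) and are called measured, and every subunit had at least 1.

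RNA was hybridised from DN3 thymocytes, sorted as lineage-negative cells that lack CD44 and carry CD25, from a Miz-1 knockout and from a wild type, both on a C57BL/6 background. DN3 cells are T cell precursors at the stage where the T cell receptor beta chain is first tested. Miz-1 is the transcription factor encoded by Zbtb17, and the knockout allele lacks the POZ domain, through which such factors pair. The labels give neither the driver of the deletion, nor the age of the mice, nor whether animals were pooled. Each genotype, called KO and WT from here on, has 1 array. No difference below therefore has an error between animals, and none could be tested. The female transcript Xist read 55300.0 in KO cells against 423 in WT cells and the Y-linked Kdm5d 36.7 in KO cells against 1782 in WT cells, so sex and genotype cannot be told apart in any subunit value.

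TRiC is a double ring in which each subunit has its own fixed place, so that a complete ring needs every one of them. It encloses newly made proteins and folds them with energy from ATP. Actin and tubulin are its best known clients, and proteins that drive the cell cycle, such as Cdc20, depend on it as well. Its subunit genes are generally expressed more in growing and dividing cells than in resting ones.

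The promoters of 5 subunits are shown because these genes have a single annotated start and have log2 ratios, described below, from -0.86 to -0.38. Each window runs from 250 bases before the start to 50 bases after it, read 5′ to 3′ along the gene, from RefSeq on build GRCm38.p6. Capitals mark matches on either strand to the motifs searched, which are named after the sequences. The windows lie at chr17:12916079-12916378 on the plus strand for Tcp1, chr3:88296885-88297184 on the plus strand for Cct3, chr5:129787106-129787405 on the plus strand for Cct6a, chr6:85451255-85451554 on the plus strand for Cct7 and chr16:87495820-87496119 on the minus strand for Cct8.
Tcp1: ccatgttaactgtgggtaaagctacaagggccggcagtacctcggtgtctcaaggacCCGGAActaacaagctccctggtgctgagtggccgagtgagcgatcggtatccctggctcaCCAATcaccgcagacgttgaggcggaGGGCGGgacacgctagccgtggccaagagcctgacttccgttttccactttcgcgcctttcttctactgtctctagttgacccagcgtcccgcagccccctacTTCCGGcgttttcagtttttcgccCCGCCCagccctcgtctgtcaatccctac
Cct3: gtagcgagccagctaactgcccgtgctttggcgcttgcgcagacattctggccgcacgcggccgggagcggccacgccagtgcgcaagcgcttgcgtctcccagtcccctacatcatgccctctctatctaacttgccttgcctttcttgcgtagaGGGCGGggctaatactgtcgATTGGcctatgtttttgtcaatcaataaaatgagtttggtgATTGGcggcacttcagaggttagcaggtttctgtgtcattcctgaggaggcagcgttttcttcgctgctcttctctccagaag
Cct6a: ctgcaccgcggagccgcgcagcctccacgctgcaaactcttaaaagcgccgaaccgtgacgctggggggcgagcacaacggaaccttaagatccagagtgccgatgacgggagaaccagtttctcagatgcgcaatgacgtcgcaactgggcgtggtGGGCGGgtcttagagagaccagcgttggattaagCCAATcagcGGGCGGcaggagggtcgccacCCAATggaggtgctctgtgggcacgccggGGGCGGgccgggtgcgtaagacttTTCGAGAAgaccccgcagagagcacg
Cct7: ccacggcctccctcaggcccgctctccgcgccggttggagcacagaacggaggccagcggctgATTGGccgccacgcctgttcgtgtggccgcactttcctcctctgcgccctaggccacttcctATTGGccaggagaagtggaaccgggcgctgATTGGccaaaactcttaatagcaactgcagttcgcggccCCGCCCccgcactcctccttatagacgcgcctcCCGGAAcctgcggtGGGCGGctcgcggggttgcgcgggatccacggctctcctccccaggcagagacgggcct
Cct8: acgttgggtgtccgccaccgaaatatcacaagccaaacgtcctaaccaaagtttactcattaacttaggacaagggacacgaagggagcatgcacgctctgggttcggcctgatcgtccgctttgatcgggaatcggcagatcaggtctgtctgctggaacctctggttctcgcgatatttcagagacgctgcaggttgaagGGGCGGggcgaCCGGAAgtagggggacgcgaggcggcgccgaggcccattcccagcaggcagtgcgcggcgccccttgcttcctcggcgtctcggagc

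RefSeq windows were matched for 7 of the 8 subunits, 9 windows in all, since Cct2 and Cct5 have a pair of starts each; Cct4 was not matched. The GC box, GGGCGG, stood in 8 of the 9 windows and in at least 1 window of all 7 genes, against 35.7% of all 32851 windows and 60.8% of the 11134 windows of genes measured here. The ETS core, written as TTCCGG, stood in 5 of 9 windows, those of Cct2, Cct5, Cct7, Cct8 and Tcp1, against 14.9% of all windows and 27.4% of those of measured genes. The CCAAT box, spelled CCAAT, stood in 4 of 9, in Cct3, Cct6a, Cct7 and Tcp1, against 37.4% of all windows and 37.4% of those of measured genes. The E-box of MYC and MAX, CACGTG, stood in none of the 9, in 7.15% of all windows and in 9.70% of those of measured genes. The paired units of a heat shock element were sought as GAANNTTC, found in 1 window of Cct2 (7.86% of all windows and 5.71% of those of measured genes), and as TTCNNGAA, found in 1 window each of Cct5 and Cct6a (8.52% of all windows and 7.15% of those of measured genes). All motifs were searched on both strands, and a match describes these letters alone. Median GC content was 60.3% over the 9 windows and 60.3% over the windows of measured genes.

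**Figure D1:**
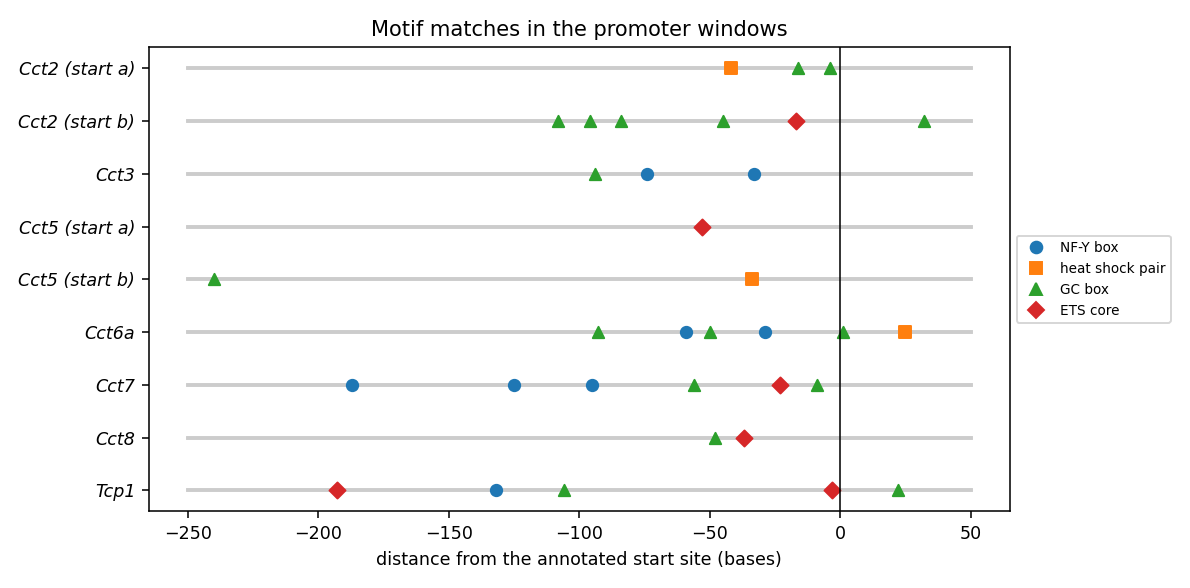
Matches to each motif in the 9 promoter windows, by distance in bases from the annotated start site (vertical line); each grey bar is 1 window of 300 bases. GC boxes stand in 8 of the 9 windows, and CCAAT boxes (NF-Y box in the legend) in those of Cct3, Cct6a, Cct7 and Tcp1.

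Every subunit gene read lower in the knockout than in the wild type. A gene was read by its brightest probe set, and its log2 ratio is that of the knockout over the wild type, so that a negative value is lower in the knockout. Over the 8 genes the log2 ratio ran from -1.05 to -0.38 with a median of -0.70, against a median of 0.00 over all 10770 measured genes. All 8 were below 0, where 50% of measured genes were. At least 2-fold lower was 1 of the 8, Cct4, and 5.65% of all measured genes were that low. At least 1.5-fold lower, a size chosen after the values were seen, were 4 of the 8, against 17.9% of all measured genes. The subunits lay close together: the SD of their log2 ratios was 0.24, while that over all measured genes was 0.68. In RNA of a whole sorted population, fewer cells of a kind, such as dividing ones, and less RNA per cell cannot be told apart.

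Both arrays had been scaled to the same trimmed mean, and 51.6% of probe sets in KO and 48.4% of those in WT were over the floor. All 8 DN3 markers read here were well over the floor, among them Ptcra (11518 in KO cells against 7513 in WT cells), while the mean of Cd44 was below it (331 in KO cells against 424 in WT cells). Il2ra, which encodes CD25, read 23018 in KO cells against 4992 in WT cells. Of 22 markers of other cells in 6 lists, 13 were measured: 10 of them read higher in KO cells and 3 lower, 3 were at least 2-fold higher and none 2-fold lower, so most ran opposite to the subunits. Those at least 2-fold higher were Lyz2 (2646 in KO cells against 736 in WT cells, log2 ratio 1.85), Nkg7 (4655 in KO cells against 1942 in WT cells, 1.26) and Csf1r (1204 in KO cells against 529 in WT cells, 1.19). The 3 lower were the NK gene Klrd1 (232 in KO cells against 683 in WT cells, -0.79), the stromal gene Krt5 (-0.19) and the myeloid gene Adgre1 (-0.05). Epcam read 4947 in KO cells against 2604 in WT cells (0.93). On the KO array Epcam and Nkg7 had signals of the size of Cct8, though signals of different probe sets are not comparable as levels. Summed over each list, the signals were 4884 in KO cells against 2012 in WT cells for 5 myeloid genes (3 measured), 5441 in KO cells against 2669 in WT cells for 3 NK genes (2 measured), 4242 in KO cells against 2382 in WT cells for 4 B cell genes (3 measured) and 6464 in KO cells against 4174 in WT cells for 5 stromal genes (3 measured). They were 576 in KO cells against 602 in WT cells for 2 erythroid genes (1 measured) and 690 in KO cells against 1255 in WT cells for 3 genes of later thymocytes (1 measured). Nkg7 made up most of the NK sum and Epcam most of the stromal sum on both arrays. Cd79b (2789 in KO cells against 1499 in WT cells) likewise made up most of the B cell sum. The NK, stromal and B cell sums thus mainly follow 1 probe set each. Under the floor on both arrays were 6 of the 22: Cd4, Pax5, Itgam, Alas2, Krt8 and Foxn1. The part of other cells in the subunit values was not tested. Zbtb17 read 1361 in KO cells against 3042 in WT cells by its brighter probe set. Its second read 610 in KO cells against 47.6 in WT cells, with a mean under the floor, and so was not measured. The labels do not say whether either probe set lies in the deleted part.

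By brightest probe set, the largest differences were those of Cct4, Cct2, Cct6a and Cct3. Cct4 encodes the delta subunit and read 19190 in KO cells against 39761 in WT cells, 2.07-fold lower (log2 ratio -1.05). Cct2, the beta subunit, read 30324 in KO cells against 56118 in WT cells, 1.85-fold lower (-0.89). Cct6a, the zeta subunit that most tissues use, read 24447 in KO cells against 44316 in WT cells, 1.81-fold lower (-0.86). Cct3, the gamma subunit, read 22228 in KO cells against 39970.0 in WT cells, 1.80-fold lower (-0.85). Cct2, Cct6a and Cct3 thus had nearly the same ratio, and Cct4 a lower one.

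The other 4 subunits differed less. Cct5, the epsilon subunit, read 15044 in KO cells against 22123 in WT cells, 1.47-fold lower (-0.56). Tcp1 encodes the alpha subunit, the first of the family to be described, from the t complex of the mouse, and read 14976 in KO cells against 21680.3 in WT cells, 1.45-fold lower (-0.53). Cct7, the eta subunit, read 18783 in KO cells against 26784 in WT cells, 1.43-fold lower (-0.51). Tcp1, Cct5 and Cct7 thus had ratios within 0.1 of one another. Cct8, the theta subunit, had the smallest difference by this reading, with 4409 in KO cells against 5753 in WT cells, 1.30-fold lower (-0.38). Signals of different probe sets are not comparable as levels, so the lower signal of Cct8 does not say that less of it is made.

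In order of log2 ratio the subunits ran Cct4, Cct2, Cct6a, Cct3, Cct5, Tcp1, Cct7 and Cct8, with the widest step, 0.29, between Cct3 and Cct5. With loess or quantile normalization Cct7 (-0.16 and -0.17) had a smaller difference than Cct8 (-0.29 and -0.32), and as the mean of measured probe sets the smallest was that of Cct3 (-0.34) and the largest that of Cct2 (-0.89). The only repeated measurement on these arrays is between probe sets of 1 gene. The SD of log2 ratios within a gene, as a root mean square, was 0.57 over 4514 genes and 0.30 over 405 genes when only probe sets at least as bright as that of Cct8 were used. No neighbours in the order were further apart than the smaller of these spreads. In yeast, Cct2, Cct4, Cct5 and Cct7 bind ATP more tightly than the other 4 subunits. Here the median log2 ratio was -0.72 for the genes of those 4 (from -1.05 to -0.51) and -0.69 for those of the other 4 (from -0.86 to -0.38), so the ranges overlapped.

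**Figure D2:**
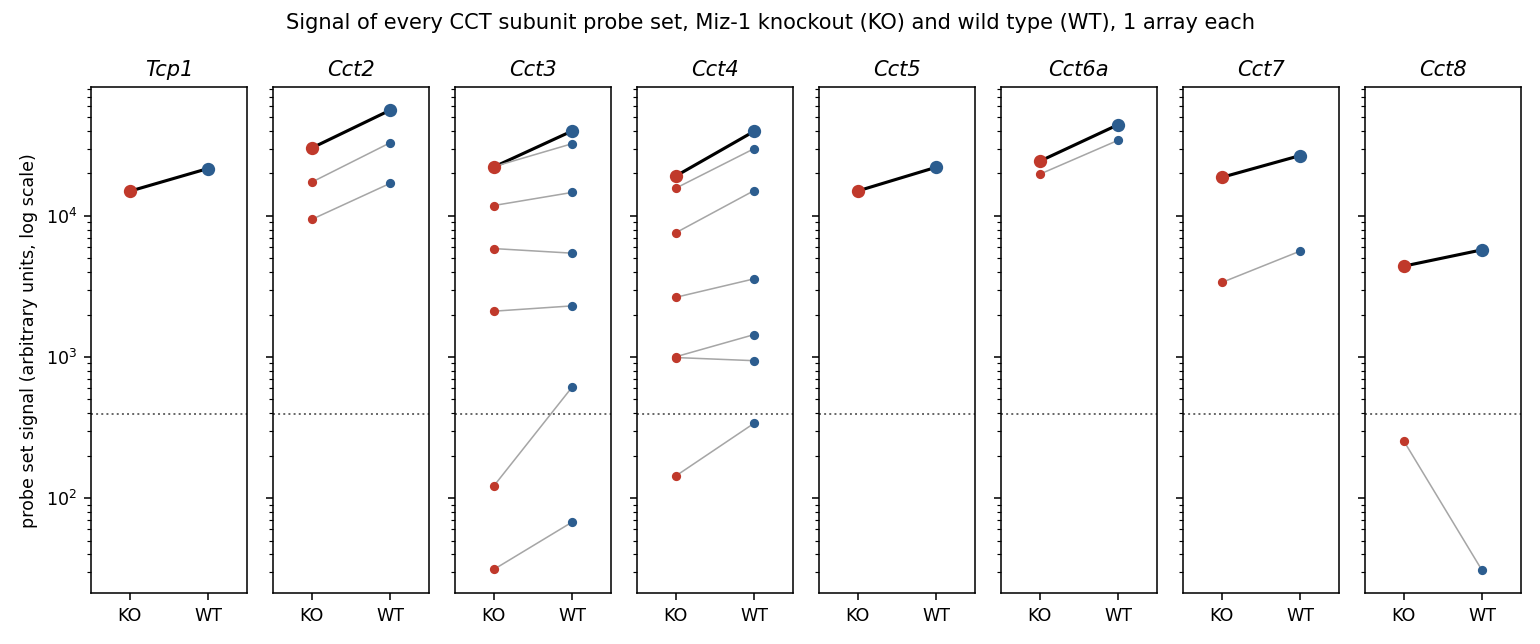
Signal of each of the 25 probe sets of the 8 subunits on the knockout (red, left) and wild-type (blue, right) array, on a log scale in arbitrary units; a line joins the values of 1 probe set, the thick line is the brightest of its gene and the dotted line is the floor of 394. Brightest probe sets are lower on the knockout array in all 8 panels. Among measured probe sets, lines of Cct3 and Cct4 tend to be flatter at lower signals. Lines of probe sets with a mean under the floor do not follow this, such as 1 of Cct3 (122 in KO cells against 610 in WT cells).

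Probe sets of the same subunit agreed closely for Cct2 and Cct6a and less so for Cct3 and Cct4. All 3 Cct2 probe sets were lower, with log2 ratios between -0.92 and -0.85: the other 2 read 17363 and 9458 in KO cells against 32962 and 16999.8 in WT cells. The second Cct6a probe set read 19775 in KO cells against 34362 in WT cells (-0.80). The SD between probe sets was 0.04 for Cct2 (n = 3) and 0.04 for Cct6a (n = 2), which covers the reading of the same pair of arrays and no difference between animals. The second Cct7 probe set read 3378 in KO cells against 5630.4 in WT cells (-0.74), lower than the first.

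Cct4 had 6 measured probe sets, with log2 ratios from -1.05 to 0.07. The 3 brightest gave -1.05, -0.93 and -0.99, the last from 7603 in KO cells against 15110.2 in WT cells. The 3 dimmer ones gave -0.43, -0.52 and 0.07, and the last of these read 992 in KO cells against 942 in WT cells. Of the 6 probe sets, 4 can also bind related sequences, the brightest included, as can the brightest of Cct2. Without probe sets of shared sequence, Cct4 had a log2 ratio of -0.93 and Cct2 one of -0.92, and no subunit was 2-fold lower. Bright probe sets of Cct4 thus agreed on a difference near 2-fold that the dim ones did not show. Cct3 had 5 measured probe sets, from -0.85 to 0.11. Its second brightest read 22362 in KO cells against 32494 in WT cells (-0.54), and the next 11857 in KO cells against 14675 in WT cells (-0.31). Another read 5872 in KO cells against 5448 in WT cells (0.11), and the dimmest measured one gave -0.12. Of these 5, all but the brightest can share sequence with other transcripts. As the mean of measured probe sets, the log2 ratio was -0.34 for Cct3 (SD 0.37, n = 5) and -0.64 for Cct4 (SD 0.43, n = 6). Of the 8 genes, Cct3 moved furthest when the mean was taken.

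Over all 21 measured probe sets, 19 had a log2 ratio below 0 and 2 above it, 1 each of Cct3 and Cct4. The 13 that read over 9000 on both arrays, a limit set after the values were seen, had a median of -0.85 and ranged from -1.05 to -0.31. The other 8 had a median of -0.41 and ranged from -0.99 to 0.11. Across the 21 probe sets, log2 ratio and log2 mean signal had a Pearson's r of -0.68 and a Spearman's rho of -0.66, as a description, since these probe sets come from 8 genes on the same pair of arrays. The 4 probe sets with a mean below the floor, 2 of Cct3 and 1 each of Cct4 and Cct8, reached at most 254 on the KO array and 610.3 on the WT array. That of Cct8 read 254 in KO cells against 30.8 in WT cells, opposite in direction to the brighter 1 and under the floor on both arrays. Those of Cct3 and Cct4 read lower in KO cells.

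The ratios of all genes on these arrays had a trend with signal. When measured genes were ordered by signal and cut into 10 groups of 1077, the median log2 ratio was 0.10 in the dimmest group and -0.34 in the brightest, where 7 of the 8 subunits lie. Among the 1531 other genes with a mean signal between those of Cct8 and Cct2, the median was -0.23, 64.6% were below 0, 23.9% were at least 1.5-fold lower and 6.53% at least 2-fold lower. The 1 of 8 subunits past 2-fold is near that background, whereas 4 of 8 past 1.5-fold and 8 of 8 below 0 are larger shares than in that range, on 8 genes that were not tested. That range is not matched for signal, since many of its genes are nearly as dim as Cct8 and 7 of the 8 subunits are in the brightest group. In that group the log2 ratio had a lower quartile of -0.63, a median of -0.34 and an upper quartile of 0.07. Ratios in the wider range thus ran higher, with a median of -0.23. Its shares of lower genes may therefore be too small as a background for most subunits.

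Each subunit was also set beside the genes whose log2 mean signal lay within 0.5 of its own. All 8 were lower than the median of those genes. Cct4 lay 0.61 below it on the log2 scale, with 8.51% of 188 such genes as low or lower. Cct3 lay 0.37 below it with 18.1% of 177 genes as low, Cct6a 0.37 with 17.2% of 151, and Cct2 0.36 with 16.8% of 107. Cct8 lay 0.31 below with 27.6% of 1350 genes as low. Cct5 lay 0.18 below with 31.8% of 289, Tcp1 0.16 with 33.6% of 295 and Cct7 0.07 with 40.7% of 236. Next to genes of like signal, Cct4 stands lowest and Cct7 is close to the middle. The part of the signal trend in the lower subunit values was not tested.

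**Figure D3:**
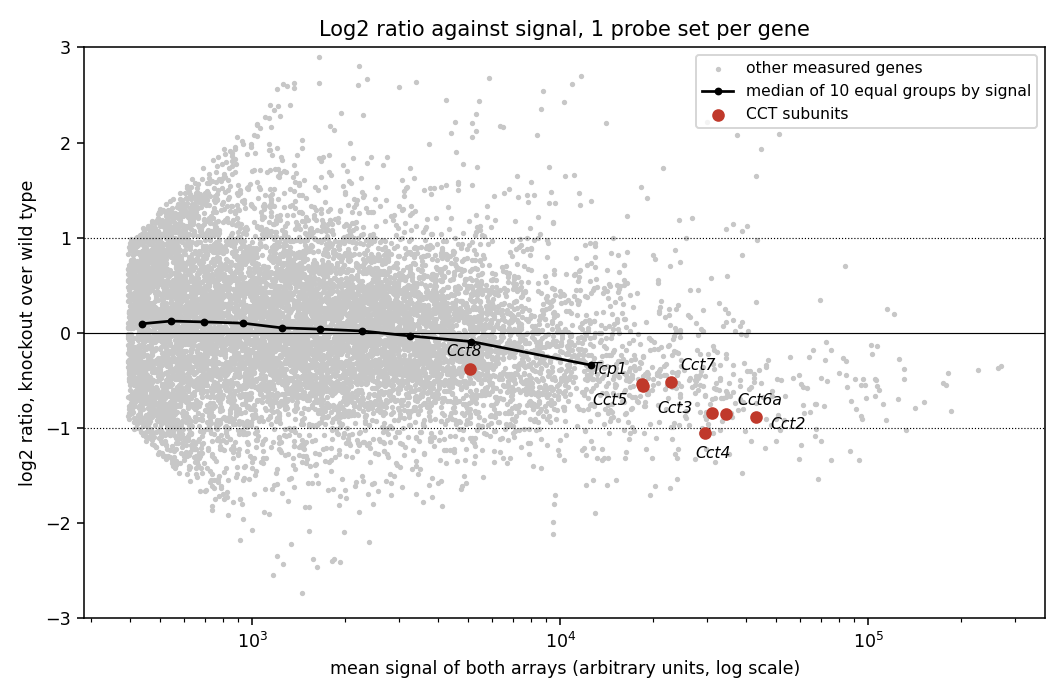
Log2 ratio of the knockout over the wild type (vertical) against mean signal of both arrays on a log scale (horizontal), 1 point per measured gene; the black line joins the medians of 10 equal groups of genes by signal, and dotted lines mark 2-fold. All 8 subunits (red) lie below 0 and below the lowest point of the black line, and only Cct4 is under the lower dotted line; 5 genes lie outside the vertical axis.

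With normalizations that level the trend, the subunit differences were smaller and none turned. The median of the brightest of 10 groups of genes was -0.04 with loess and -0.05 with quantile normalization, against -0.34 as reported. With loess normalization of the 2 arrays the median log2 ratio was -0.37, with Cct4 at -0.67 and Cct7 at -0.16, and with quantile normalization it was -0.39. With either of them none of the 8 was 2-fold lower and 1, Cct4, was at least 1.5-fold lower. Centring both arrays on their median signal, which moves the median of all measured genes by -0.16, gave a subunit median of -0.86 and 4 genes past 2-fold. For these settings the share of all measured genes past each limit was not computed. The log2 ratio was below 0 in all 72 combinations of 8 subunits and 9 alternatives, between -1.21 and -0.16. Many of these could not change sign. Both other floors and symbols as annotated left every subunit at its reported value, and median centring only lowered it. Taking means or leaving out probe sets of shared sequence changed only some subunits, so loess and quantile normalization alone raised all 8.

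**Figure D4:**
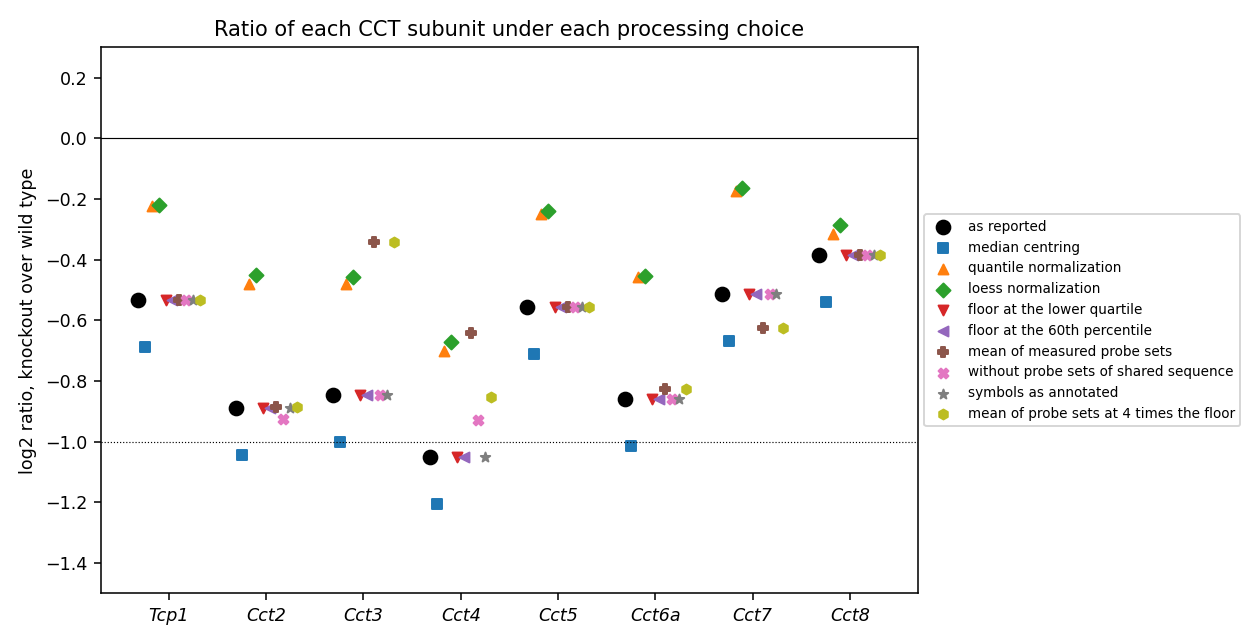
Log2 ratio of the knockout over the wild type for each subunit (horizontal axis) as reported and under 9 processing alternatives (symbols); the dotted line marks 2-fold lower. All points are below 0, loess and quantile normalization give the smallest differences for most subunits, and only Cct4 is past 2-fold as reported.

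The genes that work before and beside TRiC had values on both sides of 0. Their lists were put together from textbook roles and were not matched to the subunits for signal. The trend of ratio with signal therefore also enters each comparison of a list with the subunits, and its part was not tested. Prefoldin, a jellyfish-shaped complex that hands unfolded actin and tubulin to TRiC, had 6 of 6 genes measured, none 2-fold lower or higher, and a median log2 ratio of -0.12. Pfdn4 (2359 in KO cells against 4167 in WT cells, -0.82) and Vbp1 (3309 in KO cells against 5435 in WT cells, -0.72) had values as low as the subunits. Pfdn5 (-0.05), Pfdn6 (-0.19), Pfdn2 (0.28) and Pfdn1 (0.46) did not. Prefoldin genes thus spread over both sides of 0, and those of TRiC on 1 side. No prefoldin gene read over 5549 on either array, and Cct8 alone of the subunits was about as dim, so the 2 sets differ in signal as well.

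Phosducin-like proteins bind TRiC and tune its cycle. Of 4 such genes 3 were measured and none passed 2-fold by its brightest probe set: Pdcl3 had a log2 ratio of -0.27, Txndc9 one of -0.65 and Pdcl one of 0.33. The 3 measured probe sets of Txndc9 ran from -1.34 to -0.61, and the 2 of Pdcl from -0.35 to 0.33. Pdcl2 was under the floor by its mean. The tubulin folding cofactors, which take tubulin over from TRiC and join alpha to beta chains, had all 7 measured with a median of 0.00. Tbca, which holds beta-tubulin, read 28885 in KO cells against 28108 in WT cells (0.04). Arl2 (0.00), Tbcc (0.02), Tbcd (-0.19), Tbcb (-0.27) and Tbce (-0.38) were all under 2-fold, and only Tbcel, which promotes the breakdown of tubulin, was 2.18-fold higher (3447 in KO cells against 1583 in WT cells). Of all measured genes 7.23% were at least 2-fold higher.

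Client genes differed widely. Of 11 measured actin and tubulin genes 3 were 2-fold lower or more, and 2-fold higher were none; the median log2 ratio was -0.31. Among all measured genes 5.65% were at least 2-fold lower and 7.23% at least 2-fold higher. Tubb5, the main beta-tubulin of dividing lymphoid cells, read 42684 in KO cells against 108082 in WT cells, 2.53-fold lower (-1.34). Tubg1, the gamma-tubulin of spindle poles, was 2.07-fold lower (1292 in KO cells against 2675 in WT cells), and Tubb2a 5.30-fold lower (612 in KO cells against 3244 in WT cells, by a probe set that can share sequence with related tubulins). The actins stayed nearer to 0: Actb read 97172 in KO cells against 106356 in WT cells (-0.13) and Actg1 had a log2 ratio of -0.25. Tuba4a read 38296 in KO cells against 38585 in WT cells (-0.01), and Tubb2b and Tubb6 each had a log2 ratio of 0.16.

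Of 13 other clients measured, 3 were 2-fold lower or more, and 2-fold higher were none; their median was -0.06. Of all measured genes 5.65% were that low. Cdc20, an activator of the anaphase-promoting complex, was 2.43-fold lower (7035 in KO cells against 17112 in WT cells), the mitotic kinase gene Plk1 3.42-fold lower and Ccne1, which encodes cyclin E1, 2.46-fold lower, the last with a second probe set at 0.57. Fzr1, another activator of the same complex, had a log2 ratio of -0.28. Mlst8, a partner of mTOR, had a log2 ratio of 0.87, the deacetylase gene Hdac3 one of 0.78 and Stat3 one of 0.68, though the 4 Stat3 probe sets ran from -0.70 to 0.77.

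Some other chaperone genes had values as low as the subunits. The mitochondrial chaperonin has a similar barrel shape and a distant common ancestry with TRiC. Its gene Hspd1 was just past 2-fold lower (19211 in KO cells against 38442 in WT cells), and that of its lid, Hspe1, was 1.69-fold lower (-0.76). Cct6b and Cct8l1, relatives of the subunits used mainly in testis, were below the floor on both arrays, with at most 227 on the KO array and 293 on the WT array. Among genes with CCT-like sequence that act at the base of cilia, Mkks was 2.09-fold higher (1046 in KO cells against 502 in WT cells), Bbs12 had a log2 ratio of 0.81 and Bbs10 one of -0.08.

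Of 13 measured genes of cytosolic HSP70, HSP90 and their partners, 3 were 2-fold lower or more, and 2-fold higher were none; the list's median was -0.49. Over all measured genes 5.65% were at least 2-fold lower and 7.23% at least 2-fold higher. Hsp90aa1, the inducible HSP90, was 2.90-fold lower (35254 in KO cells against 102237 in WT cells), with 4 probe sets from -1.54 to -0.35. Hsph1, an exchange factor of HSP70, was 2.35-fold lower, and the inducible HSP70 gene Hspa1b 5.52-fold lower by its brightest probe set, its other measured ones being nearer to 0. Stip1, which links HSP70 to HSP90, had a log2 ratio of -0.93, and the constitutive HSP70 gene Hspa8 one of -0.49. At the upper end St13 had 0.28, Dnajb1 0.22 and Dnaja1 -0.01, so by brightest probe set the chaperone genes did not all share the direction of the subunits. The 3 measured probe sets of St13 ran from -0.73 to 0.28, the 2 of Dnajb1 from -0.06 to 0.22 and the 3 of Dnaja1 from -0.01 to 0.41. Of the heat shock factor genes, Hsf2 had a mean under the floor, and Hsf1 was not analysed here.

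**Figure D5:**
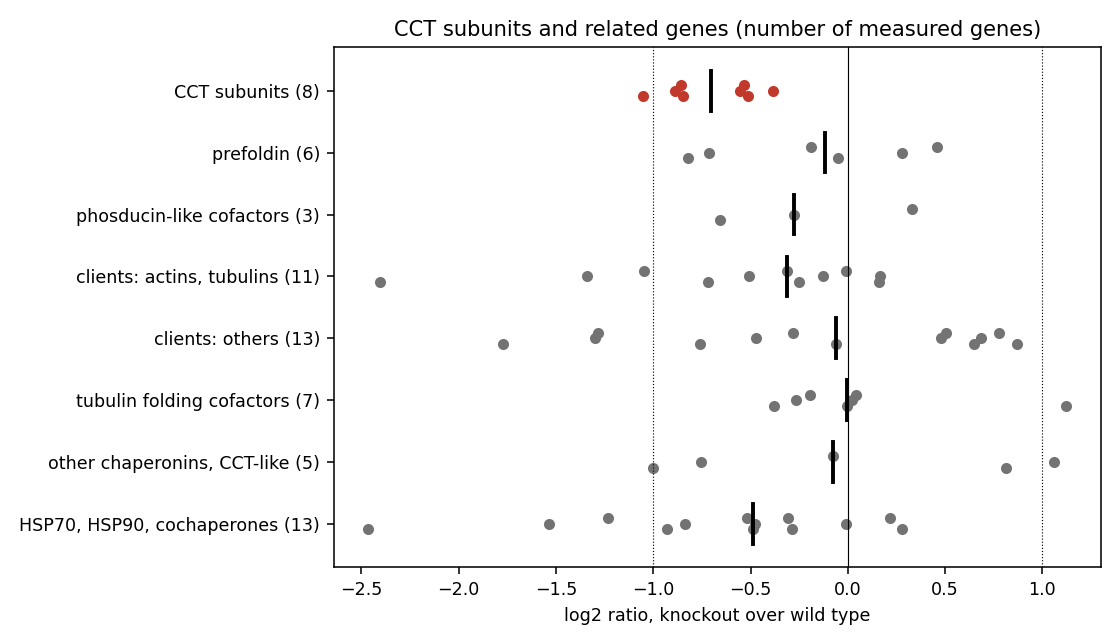
Log2 ratio of the knockout over the wild type for the 8 subunits (red) and for the measured genes of each related list (grey), 1 point per gene, with the median as a vertical bar; dotted lines mark 2-fold. The 8 subunits lie together between -1.05 and -0.38, whereas each other list reaches to both sides of 0. The lists are not matched to the subunits for signal.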

How the data were processed

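RNA was taken with TRIzol, amplified with biotin labelling and hybridised to oligonucleotide arrays, per the labels' protocols. The deposited table holds linear signal intensities, 1 per probe set and array; the submitters' processing notes name GCOS 1.4 without its settings. Both deposited columns have a mean of 1000 after trimming 2% at each end. Of 45101 probe sets, 64 controls were left out of the gene comparison, 34958 have 1 gene symbol (34754 of them updated by gene identifier from RefSeq), 932 have several and 9211 have none. The annotation gives no genome build, so coordinates are given for the RefSeq promoter windows alone.

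Values under the floor (394, the median of all non-control values) were raised to it before log2 of knockout over wild type, with Python 3.11.15, numpy 2.4.6, pandas 2.3.3 and, for loess with a span of 0.3, statsmodels 0.14.6. A gene was read by its probe set of highest mean signal, called measured if that mean was over the floor, and counted as different from 2-fold on. With 1 array per genotype there was no test, and the number of arrays limits the precision. The scripts were tested on arrays made with known differences.

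The members, the related lists and the rule for naming genes (all subunits; all measured genes of lists up to 7; of longer lists, up to the 3 highest and 3 lowest and those past 2-fold) were chosen with earlier results of these data known; Actb, Actg1, Stip1, Hspa8 and Fzr1 were named after their values were seen. The alternatives tried were quantile and loess normalization, median centring, a floor at the lower quartile or the 60th percentile, the mean of measured probe sets, leaving out probe sets of shared sequence, symbols as annotated and, added after the data were seen, the mean of probe sets at 4 times the floor or more and a limit of 1.5-fold. Protein sequences were not used here.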

Additional observations from a re-analysis of the deposited data

How the results depend on the processing

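The median log2 ratio of the subunits ranged from -0.86 to -0.37 over all settings, and each subunit was below 0 in all of them. The other floors and symbols as annotated left every subunit value unchanged, so they could not show a change of sign. The count of subunits at least 2-fold lower, 1 as reported (Cct4), was 4 with median centring and 0 with quantile normalization, 0 with loess normalization, 0 with the mean of measured probe sets and 0 without probe sets of shared sequence. At 1.5-fold the count of 4 was 7 with median centring and 1 with quantile or loess normalization. The share of all measured genes past either limit was not computed for the alternatives. Their counts therefore cannot be set against the shares of 5.65% and 17.9% found as reported. Median centring shifts all log2 signals of an array alike by construction, though ratios of genes near the floor can move by another amount. For the other settings the cause was not tested. The medians of the actin and tubulin genes (-0.47 to -0.22), of prefoldin (-0.28 to -0.02) and of the HSP70 and HSP90 list (-0.65 to -0.33) stayed below 0. Those of the other clients (-0.22 to 0.21), the phosducin-like genes (-0.43 to 0.03), the tubulin cofactors (-0.16 to 0.02) and the other chaperonins (-0.24 to 0.03) took both signs. No paired analysis was possible because there is 1 array per genotype, and none could be left out for the same reason. Signals near the floor limit what dim probe sets show.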
